A study of Homo sapiens with 6 samples.

Results

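Fatty acid elongases and desaturases were followed in C4-2 cells, a human prostate cancer line, through the transcripts of 10 genes, the elongases ELOVL1 to ELOVL7 and the desaturases FADS1, FADS2 and SCD. They were chosen by name and selected on their differences between the 2 groups described here, and come from a count table of 59565 loci, and all 10 were among the 19029 genes that passed the filter on low counts and were tested. Bulk RNA-seq libraries came from 2 groups, 3 of enzalutamide-resistant cells (C4-2 Enz-R) and 3 of the line they are set against (C4-2 parental). Enzalutamide is an antagonist of the androgen receptor. The labels do not say how the resistant cells were selected, whether they are 1 clone, whether the drug was present at harvest, or whether libraries of a group came from separate cultures, so p-values here reflect library-to-library variation that could be purely technical.

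Cells lengthen fatty acids in the endoplasmic reticulum, where an ELOVL enzyme joins a carbon pair from malonyl-CoA to an acyl-CoA, and a reductase, a dehydratase and a second reductase complete each round. Desaturases place double bonds: SCD makes monounsaturated fatty acids from saturated ones, and FADS2 and FADS1 act in turn with ELOVL5 and ELOVL2 to make long polyunsaturated fatty acids from dietary precursors. In liver and other tissues SCD, FADS1, FADS2, ELOVL5 and ELOVL6 are known targets of the lipogenic factor SREBP-1. ELOVL7 and ELOVL5 are known to respond to androgen in prostate cancer cells.

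The promoters of 4 of the genes are shown because these genes carry the pattern below: SCD and ELOVL5 are abundant genes that were lower in Enz-R, ELOVL7 was lower by over 10-fold and ELOVL6 was higher. Each sequence is the 250 bases before the gene start in RefSeq on GRCh38.p14, read 5′ to 3′ on the strand of the gene. The positions are chr10:100346983-100347232 on the plus strand for SCD, and on the minus strand chr6:53348951-53349200 for ELOVL5, chr4:110198616-110198865 for ELOVL6 and chr5:60844270-60844519 for ELOVL7. Capitals mark CCAAT, the box bound by NF-Y, and CACGTG, the E-box, on either strand.
SCD: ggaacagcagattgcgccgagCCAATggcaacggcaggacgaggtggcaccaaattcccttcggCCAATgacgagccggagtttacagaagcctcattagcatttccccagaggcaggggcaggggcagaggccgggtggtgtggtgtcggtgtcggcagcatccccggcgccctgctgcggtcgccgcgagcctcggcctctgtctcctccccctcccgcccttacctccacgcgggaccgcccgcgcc
ELOVL5: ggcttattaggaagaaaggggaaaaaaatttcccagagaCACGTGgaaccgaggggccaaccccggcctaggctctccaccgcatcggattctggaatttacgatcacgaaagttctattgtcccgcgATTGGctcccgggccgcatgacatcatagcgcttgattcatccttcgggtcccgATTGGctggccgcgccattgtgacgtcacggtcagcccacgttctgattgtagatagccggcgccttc
ELOVL6: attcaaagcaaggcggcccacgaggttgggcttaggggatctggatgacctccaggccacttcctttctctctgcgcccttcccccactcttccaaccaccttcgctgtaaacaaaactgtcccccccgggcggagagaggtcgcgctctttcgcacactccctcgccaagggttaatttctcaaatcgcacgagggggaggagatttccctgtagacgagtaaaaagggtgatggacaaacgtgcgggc
ELOVL7: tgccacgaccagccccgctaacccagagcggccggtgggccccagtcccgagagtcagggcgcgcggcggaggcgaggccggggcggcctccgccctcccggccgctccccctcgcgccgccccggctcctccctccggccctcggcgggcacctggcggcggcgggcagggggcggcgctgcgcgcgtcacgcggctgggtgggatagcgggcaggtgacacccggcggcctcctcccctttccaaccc
The SCD window holds 2 CCAAT boxes, and the ELOVL5 window holds 2 CCAAT boxes and 1 E-box. The windows of ELOVL6 and ELOVL7 hold none of the motifs searched. All 10 genes had a window, and CCAAT was found in those of 5 genes (ELOVL1, ELOVL3, ELOVL4, ELOVL5 and SCD) and CACGTG in those of 2 (ELOVL4 and ELOVL5). Over all 35116 windows of the same length, 32.0% held CCAAT and 6.34% held CACGTG. The SREBP element core TCACNCCAC, held by 0.883% of all windows, and the androgen receptor hexamer AGAACA, held by 12.4%, were in none of the windows of the 10 genes. Both strands were searched and no matches overlapped. GENCODE 29 starts all 4 printed genes upstream of their RefSeq start, so these windows hold bases within the gene as GENCODE annotates it. The windows of ELOVL6, FADS1 and FADS2 lie wholly inside the GENCODE gene. For these genes the motif search does not cover the bases before the GENCODE start.

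Library totals ran from 15673404 to 23351394 counts in Enz-R and from 19400321 to 28247038 in parental cells. Log2 CPM, the counts scaled to library size, correlated at 0.990 to 0.993 within groups and at 0.926 to 0.936 between them, across genes. Mitochondrially encoded transcripts took 14.5% to 15.5% of counts in Enz-R libraries and 8.78% to 11.3% in parental libraries. The labelled cell type was checked on 8 prostate cancer markers, all detected, whose summed level was 4872 to 5054 CPM in Enz-R and 8315 to 8959 CPM in parental libraries. KLK3 made up most of this sum (on average 2528 CPM in Enz-R and 4759 CPM in parental cells), and of the 8 markers 5 fell while KRT8 (0.40 ± 0.06 on the log2 scale), KRT18 (0.70 ± 0.07) and EPCAM (0.38 ± 0.07) rose. Markers of other cells were summed in the same way over 6 fibroblast genes (49.4 to 58.4 CPM in Enz-R, 60.2 to 63.3 in parental), 4 endothelial genes (2.94 to 3.42 and 7.30 to 9.74), 5 leukocyte genes (2.13 to 2.92 and 2.75 to 3.58) and 3 basal genes (3.17 to 3.24 and 3.51 to 4.72), and COL1A1 made up most of the fibroblast sum. No marker was at 0 in all libraries, and KRT14 had 0 counts over Enz-R and 47 over parental libraries. The part of these differences in the results below was not tested, and in bulk RNA fewer cells with a transcript and less of it per cell cannot be told apart.

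The comparison asks how elongase and desaturase transcripts of the resistant cells stand against those of the parental cells. In Enz-R all 3 desaturases and the elongases ELOVL1, ELOVL2, ELOVL3, ELOVL5 and ELOVL7 were lower, and ELOVL6 and, at very few counts, ELOVL4 were higher. The range was wide, from 1.38-fold lower for ELOVL1 to 14.5-fold lower for ELOVL7 among genes of at least 5 CPM in either group, against 3.46-fold higher for ELOVL6. In the fit over all genes all 10 passed adjusted p under 0.05, where 64.8% of all tested genes did. As lower 8 passed, where 32.3% of all tested genes did, and 2 passed as higher, where 32.4% did. The libraries of the groups did not overlap for 9 of the 10, against 68.9% of all tested genes. All Enz-R libraries lay below all parental ones for 8, against 34.7% of all tested genes, and 4 were called and at least 2-fold lower, against 8.66%. The median log2 fold change was -0.94 over the 10 and 0.01 over all tested genes. The genes were chosen with values of this contrast known. ELOVL2 and ELOVL3 passed the filter only through the parental group, and ELOVL4 only through the Enz-R group. These counts and the values per gene are therefore a description. All fold changes are Enz-R over parental, with the SE of the fit, and all levels with SD have n = 3 per group.

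**Figure D1:**
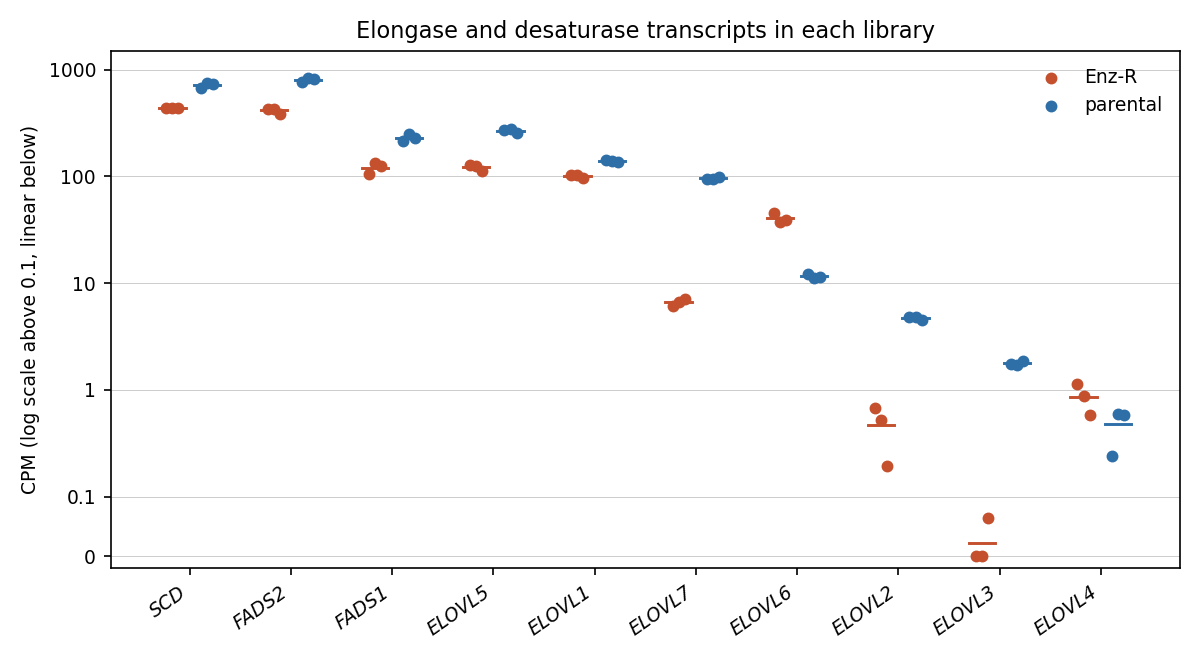
CPM of each gene in each library, on an axis that is logarithmic above 0.1 CPM and linear below, with 3 Enz-R points left of 3 parental points and a bar at each group's mean. Enz-R points lie below parental points for SCD, FADS2, FADS1, ELOVL5, ELOVL1, ELOVL7, ELOVL2 and ELOVL3, above them for ELOVL6, and overlap them for ELOVL4.

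SCD (ENSG00000099194, chromosome 10, 100347124 to 100364834), the stearoyl-CoA desaturase that makes oleate and palmitoleate, was among the 2 most abundant of the 10 genes in CPM. It had 433, 435 and 436 CPM in Enz-R libraries, against 677, 748 and 734 CPM in parental libraries. The Enz-R libraries had an SD of 1.49 CPM and lay all below the parental ones, a log2 fold change of -0.73 ± 0.06, or 1.66-fold lower. SCD5, the other human stearoyl-CoA desaturase, is not among the 10 and stood at 14.6 ± 0.0546 CPM in Enz-R and 13.5 ± 1.76 CPM in parental cells (log2 fold change 0.11 ± 0.11, adjusted p = 0.390 by edgeR's quasi-likelihood test). SCD was 23.9 ± 0.170 times as abundant as SCD5 per kilobase in Enz-R, against 43.4 ± 7.36 times in parental cells. The processed pseudogene SCDP1 had 3 counts over the Enz-R and 14 over the parental libraries.

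FADS2 (ENSG00000134824, chromosome 11, 61792980 to 61867354) encodes the delta-6 desaturase, the entry step of polyunsaturated fatty acid synthesis. It had 430.1, 429 and 383 CPM in Enz-R libraries, against 763, 832 and 811 CPM in parental libraries. The highest Enz-R library was well below the lowest parental one, and the log2 fold change was -0.95 ± 0.07, or 1.94-fold lower. FADS1 (ENSG00000149485, chromosome 11, 61799625 to 61829318), the delta-5 desaturase that forms arachidonic acid, had 105, 132 and 124 CPM in Enz-R libraries and 213, 248 and 230.1 CPM in parental libraries. Library 1 was the lowest of its group in both lines, and the groups did not overlap (-0.94 ± 0.08, or 1.91-fold lower). The pair kept a like ratio: FADS2 was 3.22 ± 0.500 times as abundant as FADS1 per kilobase in Enz-R, with 3.80, 3.00 and 2.87 in the single libraries, and 3.24 ± 0.113 times in parental cells.

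FADS1 and FADS2 lie on opposite strands of the same locus, and the kit is not stated to mark strand. Annotated exons of other genes cover 5.57% of the exon bases of FADS1 and 4.89% of those of FADS2, so a part of their reads cannot be assigned with certainty. FADS3, the third gene of the cluster, whose product is known to act on sphingoid bases, rose. It had 50, 56.0 and 58.1 CPM in Enz-R libraries, against 45.1, 37.9 and 36.7 CPM in parental libraries. Its groups did not overlap (0.45 ± 0.08, adjusted p = 0.000272), and FADS2 was 4.34 ± 0.573 times as abundant as FADS3 per kilobase in Enz-R and 11.6 ± 1.68 times in parental cells.

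ELOVL5 (ENSG00000012660, chromosome 6, 53267398 to 53349179) elongates the polyunsaturated acyl chains of medium length that FADS2 supplies. It had 128, 125 and 113 CPM in Enz-R libraries, against 273, 275 and 255 CPM in parental libraries. The groups were far apart, at -1.13 ± 0.07, or 2.19-fold lower. ELOVL2 (ENSG00000197977, chromosome 6, 10980759 to 11044314), which carries polyunsaturated chains further towards docosahexaenoic acid, was a rare transcript with 15, 9 and 3 counts in Enz-R libraries and 140, 96 and 93 counts in parental libraries. That is 0.469 ± 0.250 CPM in Enz-R and 4.73 ± 0.177 CPM in parental cells, without overlap (-3.25 ± 0.27). ELOVL2-AS1, an antisense transcript at its 5′ end that shares no annotated exon base with it, had 0 counts in every Enz-R library and 12, 19 and 9 counts in the parental libraries.

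ELOVL7 (ENSG00000164181, chromosome 5, 60751791 to 60844389), an elongase of saturated and monounsaturated very long chains, differed most among the genes with at least 5 CPM in either group. It had 6.16, 6.63 and 7.10 CPM in Enz-R libraries, against 94.7, 95.2 and 97.7 CPM in parental libraries. Every parental library was more than 10 times any Enz-R library, and the log2 fold change was -3.86 ± 0.08, or 14.5-fold lower. ELOVL1 (ENSG00000066322, chromosome 1, 43363397 to 43368074), the broadly expressed elongase that makes C24 acyl chains for sphingolipids, differed least. It had 102, 104 and 95.9 CPM in Enz-R libraries, against 143, 138 and 136 CPM in parental libraries, a log2 fold change of -0.47 ± 0.06 without overlap. ELOVL3 (ENSG00000119915, chromosome 10, 102226328 to 102229589), known from mouse skin and brown fat, had 0, 0 and 1 count in Enz-R libraries and 51, 34 and 38 counts in parental libraries. From 1 count over Enz-R and 123 over parental it was lower by 96.6-fold, with an exact 95% counting interval of 17 to 3847 that covers counting error only.

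ELOVL6 (ENSG00000170522, chromosome 4, 110045846 to 110199199), which lengthens palmitate to stearate and so supplies a substrate of SCD, went the other way. It had 45.3, 37.4 and 38.7 CPM in Enz-R libraries, against 12.2, 11.3 and 11.5 CPM in parental libraries. Every Enz-R library was above every parental one (1.79 ± 0.09, or 3.46-fold higher). ELOVL4 (ENSG00000118402, chromosome 6, 79914812 to 79947580), which makes ultra-long chains in retina, skin and brain, had 25, 15 and 9 counts in Enz-R libraries and 7, 12 and 12 counts in parental libraries. Its groups overlapped (0.581 to 1.14 CPM in Enz-R, 0.243 to 0.600 CPM in parental cells), and its log2 fold change of 0.96 ± 0.39 was past the threshold only narrowly (adjusted p = 0.0431). It was no longer past it without Enz-R replicate 1 (0.70, adjusted p = 0.206), Enz-R replicate 2 (0.97, adjusted p = 0.0850) or parental replicate 1 (0.57, adjusted p = 0.230).

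**Figure D2:**
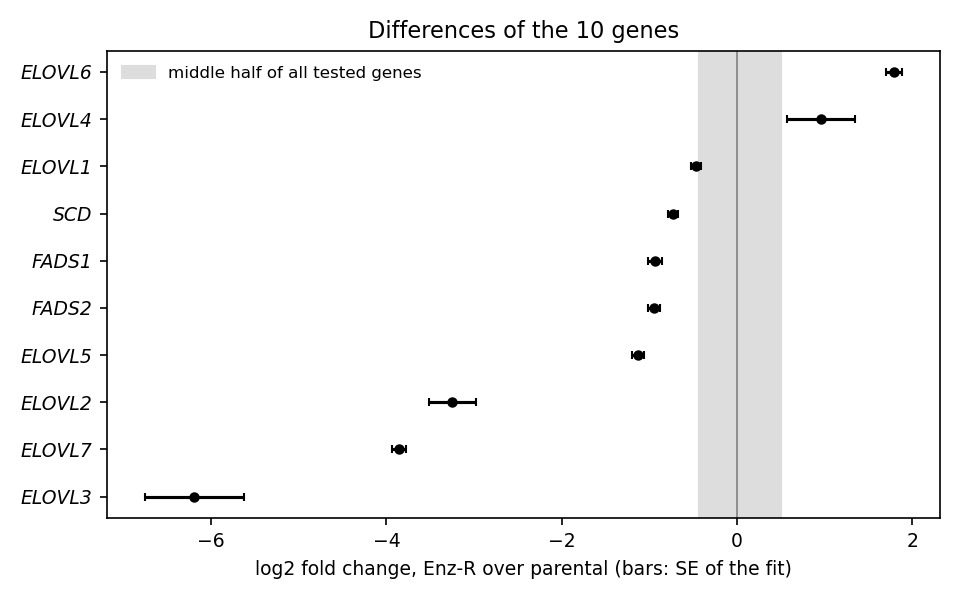
Log2 fold change of Enz-R over parental for each of the 10 genes (points) with the SE of the fit (bars), over a grey band that holds the values between the lower and upper quartile of all tested genes (-0.43 to 0.50). ELOVL6 stands at 1.79 and ELOVL7 at -3.86; the points of ELOVL3 and ELOVL4 rest on few counts, and the fitted ELOVL3 value of -6.19 depends on the prior count and became -8.27 without Enz-R replicate 3.

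Per length, the order of the genes differed between the lines. In Enz-R the order in CPM per kilobase of exon was SCD (81.0 ± 0.278), ELOVL1 (40.1 ± 1.63), FADS2 (37.6 ± 2.42), ELOVL5 (32.0 ± 2.15), FADS1 (11.8 ± 1.37), ELOVL6 (5.54 ± 0.579), ELOVL7 (1.45 ± 0.104), ELOVL4 (0.285 ± 0.0919), ELOVL2 (0.117 ± 0.0627) and ELOVL3 (0.0157 ± 0.0272). In parental cells it was SCD (134 ± 6.97), FADS2 (72.7 ± 3.17), ELOVL5 (70.2 ± 2.98), ELOVL1 (55.5 ± 1.36), FADS1 (22.5 ± 1.73), ELOVL7 (20.9 ± 0.356), ELOVL6 (1.60 ± 0.0638), ELOVL3 (1.29 ± 0.0554), ELOVL2 (1.18 ± 0.0443) and ELOVL4 (0.156 ± 0.0663). Neighbours whose library ranges overlapped were ELOVL1 and FADS2 in Enz-R, and FADS2 and ELOVL5 as well as FADS1 and ELOVL7 in parental cells. All other neighbours in either order were separated in every library. The order depends on the length used, and the longest transcript was an alternative chosen after seeing the data. Per kilobase of it, FADS2 (150.5 to 164) lay above SCD (126 to 139) in parental cells. In Enz-R the ranges of FADS2 (75.6 to 84.8) and SCD (80.7 to 81.3) overlapped, and FADS2 lay above ELOVL1 (59.0 to 63.7). By this length ELOVL5 (82.6 to 89.3) and ELOVL1 (83.8 to 88.0) overlapped in parental cells.

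The make-up of the elongase transcripts changed with it. ELOVL1 held 50.5% ± 0.876 of the summed elongase level per kilobase in Enz-R and 36.8% ± 0.477 in parental cells. ELOVL5 held 40.2% ± 0.687 in Enz-R and 46.5% ± 0.929 in parental cells. ELOVL7 held 1.83% ± 0.223 and ELOVL6 held 6.97% ± 0.610 in Enz-R, against 13.9% ± 0.582 and 1.06% ± 0.0393 in parental cells. These 2 elongases thus changed places: ELOVL7 was 0.217, 0.283 and 0.293 times as abundant as ELOVL6 in the Enz-R libraries, against 12.4, 13.4 and 13.5 times in the parental libraries. The summed elongase level was 82.5, 81.2 and 75 CPM per kilobase in Enz-R libraries, against 154, 152 and 147 in parental libraries, or 52.7% of the parental mean.

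The desaturases kept more of their make-up. Within FADS1, FADS2, FADS3, SCD and SCD5, SCD held 56.9% ± 0.978 of the level per kilobase in Enz-R and 56.2% ± 0.517 in parental cells, with overlapping libraries. Per kilobase of the longest transcript instead, SCD held 38.6% to 40.7% in Enz-R and 37.5% to 38.2% in parental libraries, without overlap. FADS2 held 26.4% ± 1.5 in Enz-R and 30.4% ± 0.0709 in parental cells, and FADS1 held 8.26% ± 0.876 and 9.41% ± 0.312. FADS3 held 6.11% ± 0.473 in Enz-R and 2.67% ± 0.426 in parental cells. The summed desaturase level in Enz-R was 59.6% of that in parental cells. SCD was 13, 15.8 and 15.3 times as abundant as ELOVL6, the enzyme before it, in Enz-R libraries, against 75.6, 90.1 and 86.5 times in parental libraries.

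**Figure D3:**
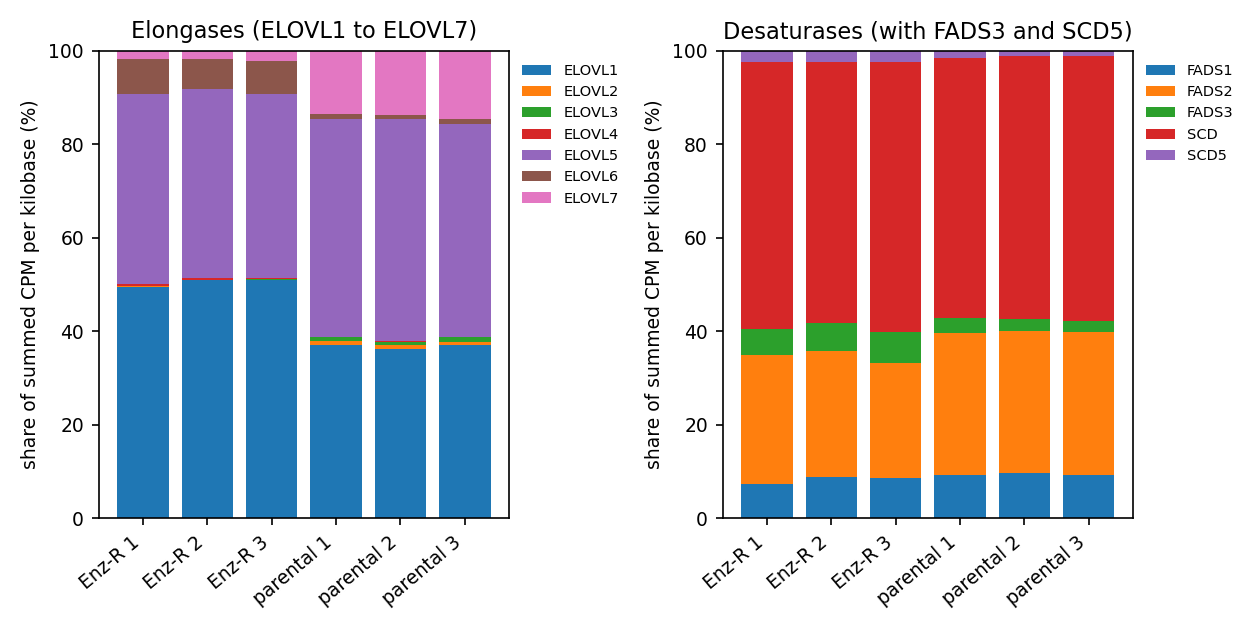
Share of each gene in the summed CPM per kilobase of its family, in percent, with 1 stacked bar per library and Enz-R libraries left of parental libraries (elongases on the left panel, desaturases with FADS3 and SCD5 on the right). ELOVL7 takes 1.63% to 2.07% in Enz-R and 13.5% to 14.6% in parental libraries, and SCD takes 55.8% to 57.7% in Enz-R and 55.6% to 56.7% in parental libraries.

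Counts in the related lists are set against the 32.4% of all tested genes called higher and the 32.3% called lower. The other enzymes of the elongation round did not share 1 direction. Of 7 genes 6 were tested, and 3 rose and 2 fell (median log2 fold change -0.06). The dehydratase gene HACD2 fell to 49.5 ± 3.52 CPM in Enz-R, against 132 ± 6.46 CPM in parental cells (-1.41 ± 0.07, adjusted p = 1.61e-10), and its relative HACD3 fell by 0.35 ± 0.06 on the log2 scale (adjusted p = 0.000195). TECR, the enoyl-CoA reductase of the last step, rose to 175 ± 0.817 CPM in Enz-R, against 96.6 ± 2.74 CPM in parental cells (0.86 ± 0.06, adjusted p = 5.46e-09). HSD17B12, the ketoacyl-CoA reductase, was past the threshold at 0.23 ± 0.08 (adjusted p = 0.0189) but not without parental replicate 1 or parental replicate 2 (adjusted p = 0.0633 and 0.0723) or by DESeq2 (adjusted p = 0.10).

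Of 5 other desaturases 2 rose and 1 fell (median 0.11). FADS3 and the little-studied FADS6 were the 2 that rose. FADS6 was a rare transcript, at 2.98 ± 0.771 CPM in Enz-R and 1.33 ± 0.0835 CPM in parental cells (1.14 ± 0.23, adjusted p = 0.000450 by edgeR). The dihydroceramide desaturase DEGS1, the most abundant of the 5, had 1351 ± 5.26 CPM in Enz-R and 1475 ± 29.6 CPM in parental cells and was not past the threshold (-0.13 ± 0.07, adjusted p = 0.101). DEGS2, at about 3 to 4 CPM, was the 1 called lower (adjusted p = 0.0394), and without 1 library at a time the number of lower calls in the list was 0 to 1. FADS6, DEGS1 and DEGS2 are named after their values were seen. Of 7 cytochrome b5 and b5 reductase genes, a group with members that pass electrons to desaturases, 3 rose and 1 fell (median -0.09). CYB5A, the main microsomal cytochrome b5, rose to 213 ± 21.2 CPM in Enz-R, against 113 ± 4.02 CPM in parental cells (0.92 ± 0.07, adjusted p = 3.18e-08). The reductase genes CYB5R2 (0.65 ± 0.14) and CYB5R3 (0.30 ± 0.07) rose as well, and CYB5R1 fell (-0.42 ± 0.07).

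De novo fatty acid synthesis, which feeds the elongases, was mixed, with 4 of 9 tested genes higher and 3 lower (median -0.04). FASN, the fatty acid synthase, had 1112 ± 53.0 CPM in Enz-R and 1182 ± 99.0 CPM in parental cells and was not past the threshold (-0.09 ± 0.08, adjusted p = 0.319). ACLY, which makes cytosolic acetyl-CoA from citrate, fell to 225 ± 1.92 CPM in Enz-R, against 329 ± 13.4 CPM in parental cells (-0.54 ± 0.06, adjusted p = 1.19e-06). The acetyl-CoA carboxylase genes ACACA (-0.44 ± 0.07) and ACACB (-0.32 ± 0.11) fell, ACACB not without Enz-R replicate 1 or parental replicate 1 (adjusted p = 0.103 and 0.0851). MID1IP1, a carboxylase activator (0.84 ± 0.06), the citrate carrier SLC25A1 (0.44 ± 0.07) and the acetyl-CoA synthetase ACSS2 (0.41 ± 0.08) rose. Mitochondrial fatty acid synthesis had 2 of 6 lower, CBR4 (-0.61 ± 0.07) and MCAT (-0.29 ± 0.07), a share near that of all tested genes, and none higher.

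Genes of SREBP, LXR and PPAR control were 5 of 15 higher, a share near that of all tested genes, and 8 lower (median -0.15). SREBF1, which encodes SREBP-1, had 500.4 ± 30.0 CPM in Enz-R and 444 ± 21.1 CPM in parental cells, a log2 fold change of 0.17 ± 0.07 (adjusted p = 0.0355). That call was lost without Enz-R replicate 2, Enz-R replicate 3, parental replicate 1 or parental replicate 2 (adjusted p = 0.0807, 0.10, 0.0784 and 0.196). SREBF2 fell to 266 ± 20.2 CPM in Enz-R, against 366 ± 19.1 CPM in parental cells (-0.46 ± 0.07, adjusted p = 3.51e-05). INSIG1, which retains SREBP in the endoplasmic reticulum and is itself an SREBP target, rose to 265 ± 24.2 CPM in Enz-R, against 167 ± 22 CPM in parental cells (0.66 ± 0.09, adjusted p = 1.12e-05). INSIG2 (0.73 ± 0.07) and the carbohydrate-responsive factor MLXIPL (1.15 ± 0.07) rose. The fatty acid receptor PPARD (-0.93 ± 0.06), its partner RXRA (-0.74 ± 0.06) and the SREBP protease MBTPS1 (-0.68 ± 0.07) fell.

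Acyl-CoA synthetases and transport proteins, which activate fatty acids for elongation, had 6 of 13 higher and 4 lower (median 0.29). SLC27A5 (1.15 ± 0.08), SLC27A3 (0.69 ± 0.10) and SLC27A1 (0.55 ± 0.07) rose, and ACSL3 (-0.66 ± 0.06), ACSL1 (-0.31 ± 0.07) and SLC27A4 (-0.27 ± 0.07) fell. SLC27A6, named after its value was seen, had 244 counts over Enz-R and 2 over parental libraries, a ratio of 155-fold with an exact 95% counting interval of 42.5 to 1289.6. Of 7 tested genes of peroxisomal oxidation, which shortens very long chains, 4 fell and none rose (median -0.39), among them the thiolase ACAA1 (-0.79 ± 0.07) and the thioesterase ACOT8 (-0.41 ± 0.07). Over all 11 lists, 33 of 96 tested genes rose and 37 fell, with a median of -0.06 beside 0.01 for all tested genes. Both counts are near the shares of all tested genes called, 32.4% higher and 32.3% lower.

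**Figure D4:**
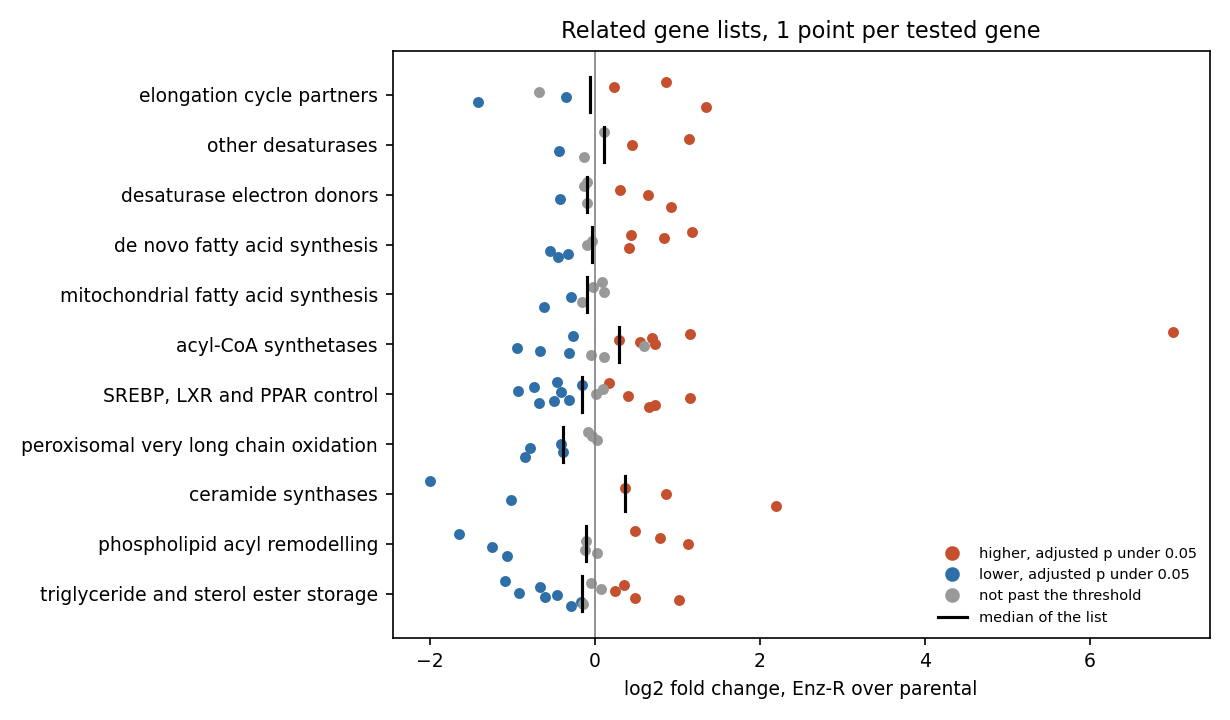
Log2 fold change of Enz-R over parental for each tested gene of 11 related lists (1 point per gene, black bar at the list's median; red and blue mark genes past adjusted p under 0.05 as higher or lower, grey the rest). List medians lie between -0.39 and 0.37, and the point near 7 is SLC27A6, with 2 parental counts.

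The 10 genes were set beside the 5 nearest tested protein-coding genes on each side. Of all tested genes, 32.4% were called higher and 32.3% lower. ELOVL1 moved as its neighbours did: 8 of the 10 fell, none rose, and their median was -0.43 beside -0.47 for ELOVL1. ELOVL7, ELOVL3 and ELOVL2 lay below all 10 of their neighbours, whose medians were -0.36, -0.61 and 0.02, and so, by 0.01, did FADS2. Of 10 neighbours 6 fell and 2 rose for ELOVL7, and 6 fell and 3 rose for ELOVL3. In the FADS cluster 4 of the 10 neighbours of FADS2 rose and 3 fell, FADS1 among them, and TMEM258 (0.82 ± 0.10) and FADS3 beside it were higher. SCD had neighbours with a median of -0.22, 4 higher and 5 lower, of which WNT8B (-0.85 ± 0.14) was below it. ELOVL5 had a median of -0.15 beside it, with BEND6 (-3.75 ± 0.43) and DST (-1.34 ± 0.08) below it. ELOVL6 had a median of 0.14 beside it, with 2 of 10 neighbours above its own value, EGF (2.04 ± 0.15) and ALPK1 (1.88 ± 0.14).

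**Figure D5:**
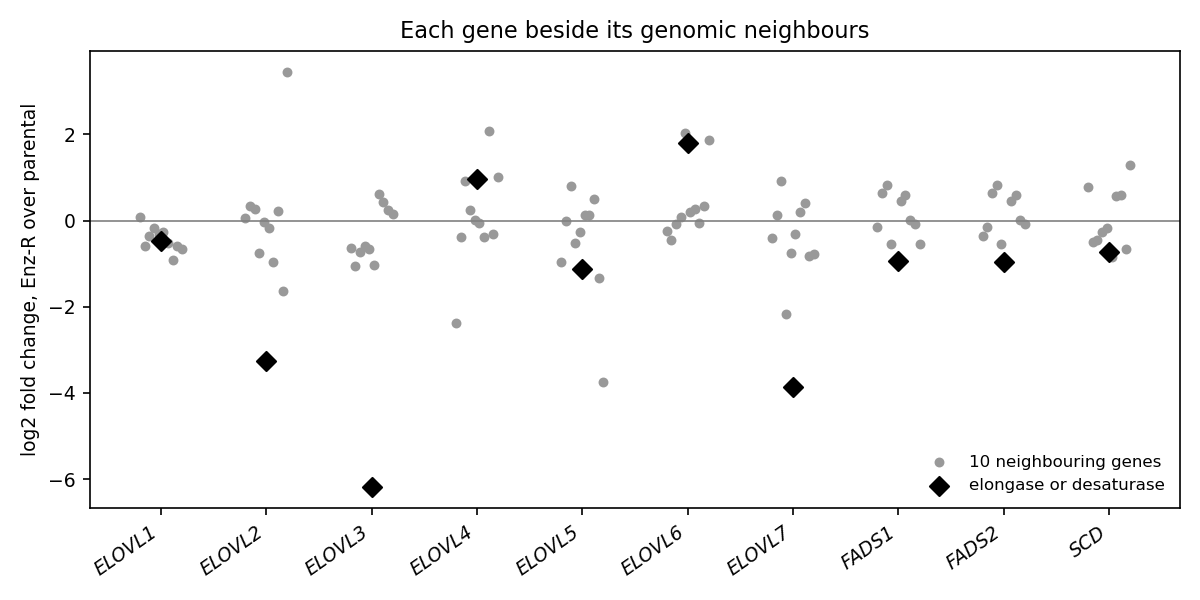
Log2 fold change of Enz-R over parental for each of the 10 genes (diamonds) and its 10 nearest tested protein-coding neighbours (grey points). ELOVL2, ELOVL3 and ELOVL7 lie far below all their neighbours, FADS2 lies just below its own, and ELOVL1 lies in the middle of its own.

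The genes most like the extremes were found by Euclidean distance in centred log2 CPM over the 6 libraries, a measure set almost wholly by the difference between the lines. Nearest to ELOVL6 were an unannotated locus (distance 0.120), ENC1 (0.149) and FMNL2 (0.157). Nearest to ELOVL7 were PXDN (0.278), NBL1 (0.296) and KCNK13 (0.330). The unannotated locus averaged 1.14 CPM in Enz-R and 0.273 CPM in parental cells, and KCNK13 0.0563 and 2.14 CPM. At levels this low the distance depends on the prior count of 2. The fitted log2 fold change of KCNK13 was -5.13, beside -3.86 for ELOVL7.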

How the data were processed

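RNA-seq libraries of C4-2 cells were sequenced as 150 bp paired-end reads, per the labels' protocols, and the submitters' processing notes name HISAT2 and GRCh38. For versions, counting tool and strand handling, nothing is stated in the labels. The authors deposited raw counts per gene. Identifiers were matched to GENCODE 29 for names, positions and exon lengths.

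Enz-R and parental libraries, grouped by title, entered 1 fit over all genes: edgeR 4.0.16 (R 4.3.3), its quasi-likelihood test after filterByExpr and TMM factors (Benjamini-Hochberg adjustment over 19029 genes, threshold 0.05). SEs were derived from the F statistic and can be too small at few counts. CPM uses totals scaled by TMM factors, and levels per kilobase divide CPM by the union of annotated exons, which gives the same shares within a family as TPM. Chi-square per degree of freedom between replicates was 4.30 to 10.1, so libraries differ by more than counting error.

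Named genes were the 10 genes, 11 others picked by name, the 3 genes nearest in profile to the largest riser and faller, and per list up to 3 called risers and 3 fallers of at least 5 CPM in the higher group. Of the genes this rule names, 1 is not reported here. Lists are described by counts and medians, with no set test. The genes and lists were chosen with earlier results of these data known. Alternatives were a replicate block, leaving out each library, other scalings and filters, DESeq2 1.42.0 and limma-voom (limma 3.58.1). The fit was checked on simulated counts in which few genes changed and every gene had the same dispersion. That check does not cover a difference as broad as this, where 64.8% of tested genes passed. Promoter sequences are RefSeq's (GRCh38.p14). Tables and figures used Python 3.11.15, pandas 2.3.3, numpy 2.4.6, scipy 1.17.1 and matplotlib 3.10.9.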

Additional observations from a re-analysis of the deposited data

How the results depend on the processing

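Over 13 alternatives the log2 fold changes of ELOVL1, ELOVL2, ELOVL5, ELOVL6, ELOVL7, FADS1, FADS2 and SCD kept their direction and stayed past the threshold, and so did ELOVL3 over the 12 that tested it, with values from -8.27, without Enz-R replicate 3 and its single count, to -5.48 by limma-voom. ELOVL4 kept its direction over 12 alternatives but was not past the threshold under total count scaling (0.87, adjusted p = 0.0654) or DESeq2 (0.90, adjusted p = 0.209), and it was 0.57 to 1.16 when 1 library was left out. The number of the 10 genes called higher was therefore 1 under total count scaling and under DESeq2, 1 with at least 50 counts in 3 libraries, where ELOVL4 was not tested, and 1 to 2 with 1 library left out. Lower calls among the other desaturases were 2 under total count scaling and limma-voom, 0 without a filter and 0 to 1 with 1 library left out, and their higher calls were 1 with the 50-count filter. Lower calls among the cytochrome b5 and b5 reductase genes were 3 under total count scaling. HSD17B12 and SREBF1 also lost their calls under total count scaling (adjusted p = 0.169 and 0.343) and without a filter (0.0936 and 0.0994), and HSD17B12 by DESeq2 (0.10). The cause was not tested, except that the 50-count filter removes genes. Deviations of same-numbered libraries correlated at 0.0493, -0.00808 and 0.0112, and not every library was most like its own number. Correlations over all genes cannot decide whether the replicate numbers pair the libraries. The mitochondrial share of counts fell with replicate number in both groups (15.5%, 14.8% and 14.5% in Enz-R, 11.3%, 10.5% and 8.78% in parental cells). With the replicate block 6179 genes were higher and 6158 lower, against 6173 and 6150 without it. Total count scaling gave 5208 higher and 7094 lower and moved the median log2 fold change of all genes to -0.083.

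Dividing by the longest transcript instead of the exon union moved the shares, by construction. Shares in Enz-R and parental cells became 56.4% and 42.8% for ELOVL1, 36.1% and 43.4% for ELOVL5, 5.71% and 0.905% for ELOVL6, 1.46% and 11.5% for ELOVL7, and in parental cells 0.592% for ELOVL2 and 0.648% for ELOVL3. Among desaturases they became 13% and 14.3% for FADS1, 39.9% and 44.5% for FADS2, 5.04% and 2.13% for FADS3, and 39.7% and 37.8% for SCD, so that the mean of FADS2 was above that of SCD, in every library only in parental cells, with 2.30% for SCD5 in Enz-R. Depth limits ELOVL2, ELOVL3 and ELOVL4, which had 27, 1 and 49 counts over Enz-R and 329, 123 and 31 over parental libraries.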

Other observations

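Genes that use long acyl chains went both ways in Enz-R, where 32.4% of all tested genes were called higher and 32.3% lower. Ceramide synthases, which join acyl-CoAs of set lengths to sphingoid bases, had 3 of 5 tested genes higher and 2 lower (median log2 fold change 0.37). CERS1, known for C18 ceramides, rose to 22.8 ± 2.88 CPM in Enz-R, against 4.88 ± 0.568 CPM in parental cells (2.20 ± 0.13, adjusted p = 1.16e-09 by edgeR), and CERS4 (0.86 ± 0.07) and CERS5 (0.37 ± 0.08) rose. CERS6 fell to 15.5 ± 0.798 CPM in Enz-R, against 62.1 ± 8.19 CPM in parental cells (-2.00 ± 0.10, adjusted p = 1.61e-10 by edgeR). CERS2, known for very long chains, fell by 1.02 ± 0.10 on the log2 scale (adjusted p = 2.87e-07 by edgeR).

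Of 9 genes of phospholipid acyl remodelling 3 rose and 3 fell (median -0.11), shares near those of all tested genes. MBOAT2, an acyltransferase that prefers monounsaturated chains, fell to 57.3 ± 5.40 CPM in Enz-R, against 181 ± 1.02 CPM in parental cells (-1.65 ± 0.07, adjusted p = 3.37e-11), and LPCAT3, which places polyunsaturated chains, fell by 1.24 ± 0.12 (adjusted p = 3.56e-07) as did LCLAT1 by 1.06 ± 0.11. LPCAT4 (1.13 ± 0.08), MBOAT1 (0.79 ± 0.15) and MBOAT7 (0.49 ± 0.06) rose. Of 14 genes of triglyceride and sterol ester storage 4 rose and 7 fell (median -0.16). The triglyceride-forming enzymes DGAT1 (1.02 ± 0.07) and DGAT2 (0.49 ± 0.08) and the lipase PNPLA2 (0.35 ± 0.07) rose, while the sterol acyltransferase SOAT1 (-1.09 ± 0.07), the phosphatidate phosphatase LPIN2 (-0.92 ± 0.08) and the droplet coat protein PLIN3 (-0.67 ± 0.07) fell.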
